A study of Homo sapiens with 6 samples.

Results

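The cytosolic ribosomal protein genes were followed in HCT116 cells with and without knockdown of PLEK2. They were taken by name: RPSA, RPLP0, RPLP1, RPLP2 and every symbol made of RPS or RPL and a number, with an A, X or L where the name has it, so that kinases of RPS6 and pseudogenes were left out. The rule found 82 of the 17047 genes in the table, 32 for the small subunit and 50 for the large subunit. Of these, 77 encode the standard proteins of the cytosolic ribosome and 5 encode paralogs that resemble a standard protein (RPS27L, RPL3L, RPL7L1, RPL22L1 and RPL26L1). RPL10L and RPL39L were not analysed here. All but RPL3L (81 of 82) passed the filter on low counts and were tested.

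HCT116 cells are a long-established line from a human colorectal carcinoma. They carried a lentiviral pLKO.1 vector with either a non-targeting shRNA (shNC) or a single shRNA against PLEK2, a pleckstrin family protein linked to cell spreading, and the comparison asked what its knockdown did to gene expression. Polyadenylated RNA of 3 libraries per group was sequenced as single-end reads of 50 bases, and the submitters gave an estimated read count and a value scaled to transcript length and library total (FPKM) for each gene. Nothing in the sources states that the 3 libraries of a group came from separate cultures, so p-values measure only the spread between these libraries.

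A ribosome is built from a small subunit, which reads the mRNA, and a large subunit, which forms the peptide bonds. Each ribosomal protein is needed in about equal numbers, and in most vertebrate genes for them the mRNA begins with a C followed by a run of pyrimidines, the terminal oligopyrimidine (TOP) motif through which mTOR and LARP1 control their translation. Ribosomal proteins that are made in excess are normally degraded, and some of them, among them RPL5 and RPL11, can bind MDM2, the ubiquitin ligase of p53. Background of this kind concerns protein and translation, whereas the values below are levels of polyadenylated RNA.

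Library totals ranged from 14377532 to 15602732 counts. PLEK2 stood at 85.9, 72.6 and 82.8 CPM (counts scaled to the library total and TMM factor) in shNC replicates 1, 2 and 3 and at 16.0, 32.2 and 34.9 CPM in PLEK2 shRNA replicates 1, 2 and 3. Epithelial markers were high, with EPCAM, KRT8, KRT18 and KRT19 at 152 FPKM or more in each library, whereas the intestinal marker VIL1 was at or near 0 (at most 0.08 FPKM). CDH1 stood between 15.6 and 25.7 FPKM and CDX2 between 6.39 and 8.69 FPKM. The blood and endothelial markers CD3E, PECAM1 and CDH5 reached at most 0.05 FPKM, and of the fibroblast markers COL3A1 was near 0 and COL1A1 stood between 4.26 and 5.94 FPKM. PTPRC and DCN were not analysed here. Replicate 1 stood apart from replicates 2 and 3 in both groups. The chi-square per gene was 14.3 and 20.2 between shNC 1 and the other shNC libraries and 4.68 between shNC 2 and 3, and it was 19.6 and 18.2 against 3.05 in the PLEK2 shRNA group.

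The starts of the transcripts were read first, because a TOP-like start is what these genes share beyond their name. A start was counted as TOP-like where the annotated first base of the reference transcript (MANE Select, GENCODE 44 on GRCh38) was a C and at least 4 further C or T followed without a break on the sense strand. It was found in 59 of the 82 genes (72.0%), against 4.70% of all 19061 reference transcripts. The run of pyrimidines was 5 to 19 bases long in those 59, with a median of 8. The first 20 bases are shown for the gene with the highest level (RPS2), the 3 stalk proteins, the longest run (RPL39), RPS16, whose values are given in detail below, the X-linked RPS4X, and 3 standard genes each followed by its paralog. Capitals mark a run that starts at the first base with C.
RPS2, chr16:1964807-1964826, minus strand: CTTCTTTTCCgacaaaacac
RPLP0, chr12:120201092-120201111, minus strand: CCTTCTCTCgccaggcgtcc
RPLP1, chr15:69452818-69452837, plus strand: CCCCTTTCCTCagctgccgc
RPLP2, chr11:809967-809986, plus strand: CCTTTTCCTCCCTgtcgcca
RPL39, chrX:119791611-119791630, minus strand: CCCTCCTCTTCCTTTCTCCg
RPS16, chr19:39435930-39435949, minus strand: CCTTTTCCggttgcggcgcc
RPS4X, chrX:72277229-72277248, minus strand: aatttctacgcgcaccggaa
RPS27, chr1:153990762-153990781, plus strand: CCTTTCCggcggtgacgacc
RPS27L, chr15:63157458-63157477, minus strand: gcagatcgcttgcagcttgc
RPL22, chr1:6199576-6199595, minus strand: CCTTTCTaactccgctgccg
RPL22L1, chr3:170870176-170870195, minus strand: CTCTCTgctctcgcggccga
RPL26, chr17:8383174-8383193, minus strand: CTCTTCCCTTTTgcggccat
RPL26L1, chr5:172959424-172959443, plus strand: acttccggccctgcgcactc
Of the 4 tested paralogs, RPL22L1 had a TOP-like start and RPS27L, RPL26L1 and RPL7L1 did not. The first base is that of the annotation, and the base at which these cells start a transcript was not measured. The 82 genes lay on 21 chromosomes, with 12 of them on chromosome 19, 8 on chromosome 3, 6 on chromosome 17 and 4 on the X chromosome.

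Ribosomal protein genes were among the most abundant mRNAs in HCT116 cells. They made up 62 of the 100 genes and 74 of the 200 genes with the highest mean FPKM over the 6 libraries. The median FPKM of the 77 standard genes was 1351, with quartiles of 978 and 1767, against a median of 5.45 over all 17047 genes. RPS2, a small-subunit protein near the mRNA entry, led with 5012 ± 521 FPKM (SD, n = 3) in shNC and 4842 ± 339 FPKM in PLEK2 shRNA. RPS18 followed at 3015 ± 483 and 2922 ± 159 FPKM, and RPL41, the smallest ribosomal protein, at 2654 ± 320 and 2562 ± 156 FPKM. RPL12 and RPLP0, which form the base of the stalk of the large subunit, came next, at means over all libraries of 2458 and 2456 FPKM. Apart from RPS2, the order was not sharp: in 73 of the 81 neighbouring pairs of the order the ranges over the 6 libraries overlapped.

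The low end of the FPKM order depended on the length used to scale the counts. RPS23 was the lowest standard gene at 141 FPKM, 34.9-fold below RPS2. For RPS23 the deposited FPKM and counts together imply a length of 3175 nt, whereas its coding sequence has 429 nt. RPL27A (4743 nt implied, 444 nt coding) and RPL13 (4400 nt implied, 633 nt coding) were of the same kind, and 19 of the 82 genes had an implied length over 1000 nt. Scaled to coding length in place of that length, the 77 standard genes had quartiles of 1286 and 1977 CPM per kb and a median of 1533 CPM per kb. On that scale RPL13 moved up to 2542 CPM per kb, RPS23 stayed below the lower quartile at 1045 CPM per kb, and RPS2 stayed high at 4479 CPM per kb. The lowest was then RPL14 at 793 CPM per kb, and the highest was RPL41 at 11536 CPM per kb, whose coding sequence of 75 nt is a small part of its mRNA. Across the 77 genes the 2 scales ranked alike only in part (Spearman's rho 0.525, across genes that share their counts). The median of the 31 small-subunit genes was above that of the 46 large-subunit and stalk genes on the FPKM scale (1380 and 1232 FPKM) and below it per coding length (1444 and 1632 CPM per kb).

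**Figure D1:**
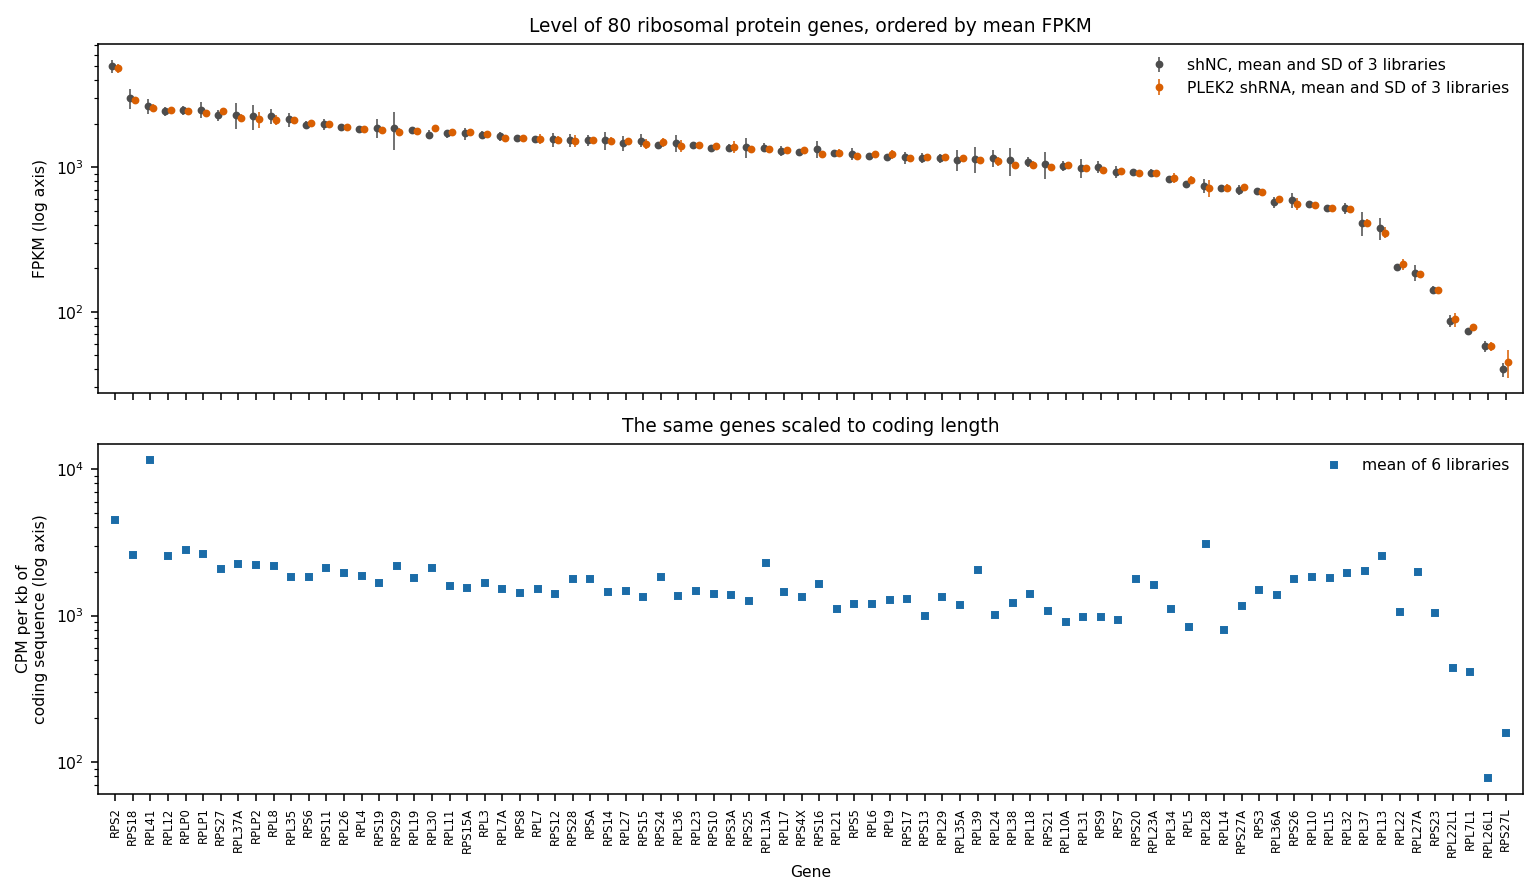
Levels of 80 tested ribosomal protein genes, in order of mean FPKM. The upper panel plots FPKM on a log axis as the mean and SD of 3 shNC (grey) and 3 PLEK2 shRNA (orange) libraries, and the lower panel plots the mean CPM of the 6 libraries per kb of coding sequence, also on a log axis. RPS2 leads the upper panel at 4927 FPKM, the paralogs lie at its end, and RPL13 and RPL27A are low in the upper panel but not in the lower one, whereas RPS23 is low in both.

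Together the 82 genes took about the same share of all counts in both groups. The share was 6.23%, 6.76% and 7.41% in shNC replicates 1, 2 and 3 and 6.55%, 6.77% and 6.81% in PLEK2 shRNA replicates 1, 2 and 3. The shNC libraries held both the lowest and the highest share, and the PLEK2 shRNA libraries lay between them. The means were 6.80% ± 0.592 in shNC and 6.71% ± 0.142 in PLEK2 shRNA (SD, n = 3), a difference of -0.0916 percentage points (exact two-sided permutation test, p = 0.9, where 3 libraries against 3 cannot give a p below 0.1). The sign of this difference rested on shNC 3, without which it was 0.214, and it stayed below 0 without any other library (-0.377 without shNC 1). In bulk RNA, a change in the number of cells of a kind and a change in RNA per cell cannot be told apart, and a share of counts does not show how many ribosomal protein mRNAs a cell held.

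Small- and large-subunit genes kept about the same ratio to each other in all 6 libraries. Small-subunit genes took 2.57% ± 0.238 of counts in shNC and 2.53% ± 0.0575 in PLEK2 shRNA (exact permutation test, p = 0.8), and large-subunit genes took 4.23% ± 0.354 and 4.18% ± 0.0843 (exact permutation test, p = 0.9). The log2 ratio of small- to large-subunit counts was -0.736, -0.715 and -0.709 in shNC and -0.725, -0.721 and -0.718 in PLEK2 shRNA. Its means were -0.720 ± 0.0138 and -0.721 ± 0.00379 (exact permutation test, p = 0.9).

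**Figure D2:**
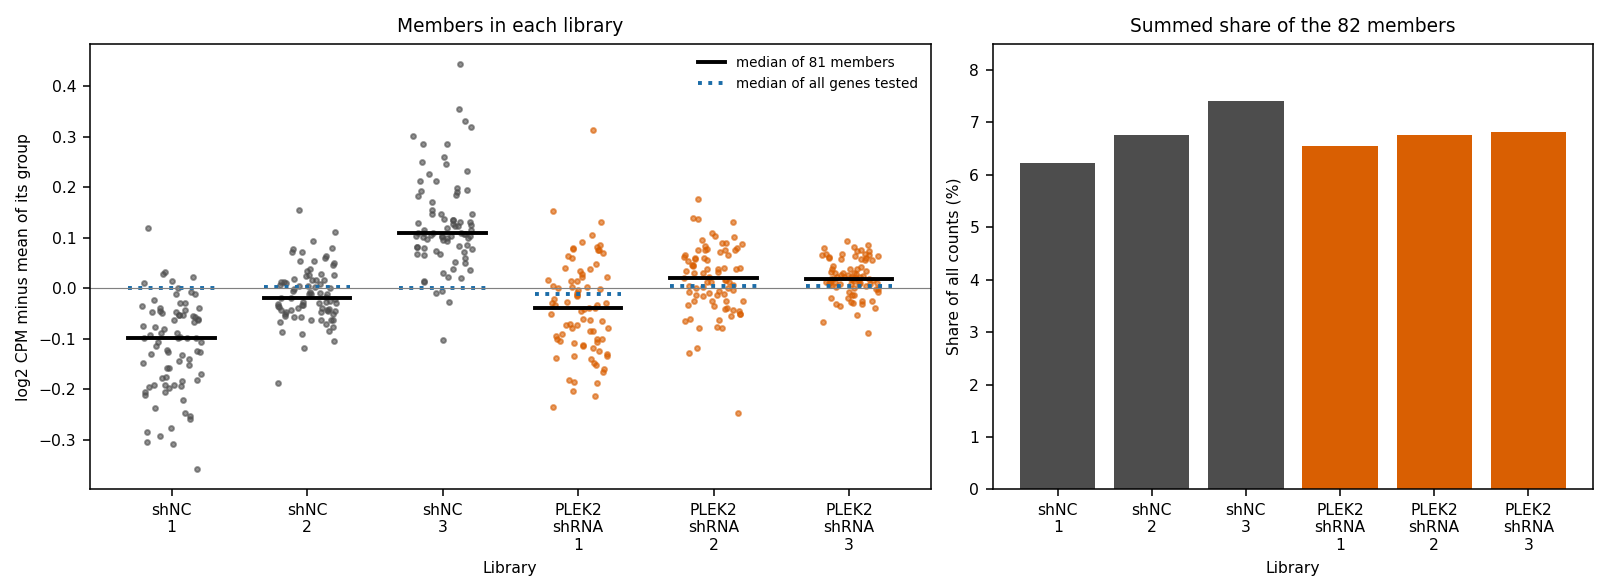
Ribosomal protein genes in each library. Left, each point is the log2 CPM of 1 of 81 genes minus the mean of its group, with the median of these genes (black bar) and of all genes tested (blue dots); right, the bars give the summed share of counts of the 82 genes in percent. The medians run from -0.10 in shNC 1 to 0.11 in shNC 3 and lie closer to 0 in the PLEK2 shRNA libraries.

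No ribosomal protein gene passed the test for a difference between PLEK2 shRNA and shNC. At an adjusted p under 0.05 in edgeR, 0 of the 81 genes were called, against 0% of all 12959 genes tested, and the lowest adjusted p was 0.968. At an unadjusted p under 0.05 it was also 0 of 81, against 3.09% of all genes (2.22% lower and 0.864% higher). DESeq2 called 0 of the 81 at an adjusted p under 0.05, against 0.0926% of all genes. The knocked-down gene PLEK2 did not pass in the edgeR fit either (log2 fold change -1.54, edgeR, adjusted p = 0.684). A gene that was not called in this fit is therefore not shown to be unchanged. Log2 fold changes of PLEK2 shRNA against shNC of the genes described here ran from -0.14 for RPS16 to 0.12 for RPS27L, and the 81 genes had a median standard error of 0.085. The 95% intervals put bounds on what could have been missed. They lay within 1.5-fold in either direction for all 81 genes, the outermost bounds being -0.53 and 0.48 on the log2 scale, and within 1.25-fold for 59 of them.

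The libraries of both groups share replicate numbers, and same-numbered libraries deviated together, so the fit was also made with the replicate number as a block. It again called 0 of 81 genes at an adjusted p under 0.05, against 0.849% of all genes. DESeq2 with the block also called 0, against 2.54% of the genes to which it gave an adjusted p. PLEK2 itself passed in edgeR with the block (log2 fold change -1.57, edgeR, adjusted p = 0.00106). The block narrowed the intervals, which then lay within 1.25-fold for all 81 genes. At an unadjusted p under 0.05 the block gave 5 genes, all of them lower in PLEK2 shRNA, RPS16, RPL8, RPS15 and RPS26 among them. That is 5 of 81, against 18.3% of all genes at the same threshold (10.4% lower and 7.89% higher).

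Small values leaned to the lower side, by an amount that depended on shNC 3. The median, set against 0, also depended on the scaling, as did the number of genes below 0. The median log2 fold change of the 81 genes was -0.05, against -0.002 over all genes, and 66 of the 81 were below 0, against 50.6% of all genes. With plain library totals in place of TMM both medians moved up. The median of the 81 genes was then -0.01 and 49 of 81 were below 0, against 0.03 and 41.8% for all genes. Without shNC 3 the median turned to 0.03, and 24 of 81 were below 0. Without shNC 1 it was -0.08, and 68 were below 0. The groups did not overlap for 2 of 81 genes, both lower in PLEK2 shRNA (RPL10 and RPL4), against 5.11% of all genes lower and 4.08% higher. In 20 of 81 genes all 3 same-numbered pairs were lower in PLEK2 shRNA and in 3 all were higher, against 21.1% and 19.9% of all genes.

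**Figure D3:**
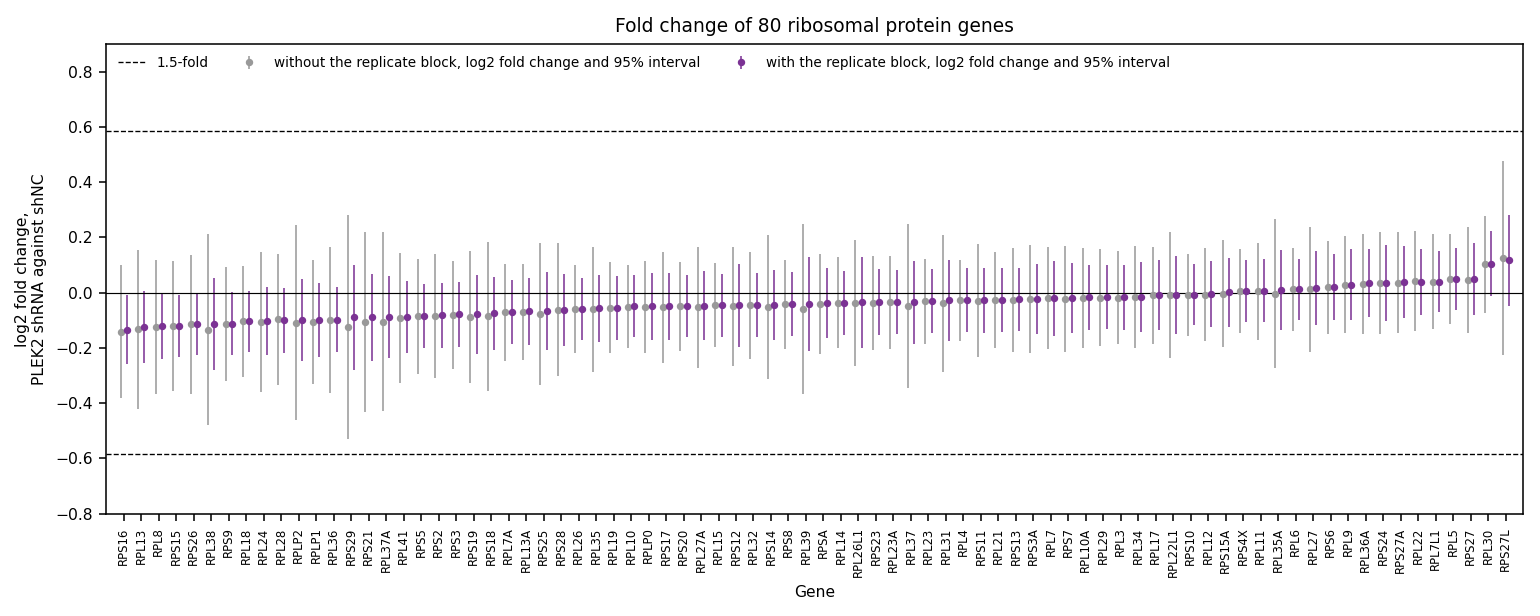
Log2 fold change of PLEK2 shRNA against shNC for 80 ribosomal protein genes, in order of the value with the replicate block. Points are estimates and lines 95% intervals, in grey without and in purple with the block, and dashed lines mark 1.5-fold. All grey intervals stay inside the dashed lines, and RPS16 and RPS27L are at the ends, at -0.14 and 0.12 without the block; the lean below 0 turns without shNC 3.

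Among the small-subunit genes, 26 of the 31 standard genes had a log2 fold change below 0, with a median of -0.05 and a range of -0.14 to 0.05. RPS16, which reaches toward the tRNA in the decoding centre, stood at 651, 747 and 855 CPM in shNC replicates 1 to 3 and at 635, 696 and 712 CPM in PLEK2 shRNA. The groups overlapped, although each PLEK2 shRNA library was below its same-numbered control. Its log2 fold change was -0.14 ± 0.106 (SE), and with the block -0.13 ± 0.057 (edgeR, adjusted p = 0.237). With the block and without replicate 1 of both groups, RPS16 passed the threshold (-0.18, edgeR, adjusted p = 0.0446), in a fit that called 4.06% of all genes. RPS15, a protein of the head of the small subunit, stood at 534, 635 and 651 CPM and at 498, 598 and 578 CPM. Again each pair was lower by a small amount within overlapping groups (log2 fold change -0.12 ± 0.104).

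RPS26, which lies at the mRNA exit channel and was picked here after its values were seen, behaved in the same way. It stood at 555, 662 and 692 CPM in shNC and 516, 628 and 619 CPM in PLEK2 shRNA (log2 fold change -0.11 ± 0.110). RPS9 had 526, 609 and 630 CPM against 506, 566 and 557 CPM, a log2 fold change of -0.11 ± 0.091. In RPS16, RPS15, RPS26 and RPS9, replicate 1 was the lowest library of its group in both groups. RPS6, the substrate of S6 kinase downstream of mTOR, had 1309, 1312 and 1460 CPM in shNC and 1377, 1379 and 1379 CPM in PLEK2 shRNA. Its 3 PLEK2 shRNA libraries were almost equal and lay inside the shNC range (log2 fold change 0.02 ± 0.073).

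RPSA, also known as the laminin receptor, had 1489, 1560 and 1746 CPM in shNC and 1560, 1539 and 1565 CPM in PLEK2 shRNA. The PLEK2 shRNA values again lay inside the shNC range (log2 fold change -0.04 ± 0.079). RPS2 had 3576, 4308 and 4274 CPM against 3462, 4020 and 3984 CPM, lower in each pair with overlapping groups (log2 fold change -0.08 ± 0.099). RPS18, a protein of the head of the small subunit, had 1023, 1211 and 1418 CPM against 1060, 1177 and 1205 CPM. Its highest value came from shNC 3, and pair 1 went the other way from pairs 2 and 3 (log2 fold change -0.09 ± 0.118).

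Among the 43 large-subunit genes outside the stalk, 35 had a log2 fold change below 0, with a median of -0.04. RPL8, a protein close to the peptidyl transferase centre, had 1526, 1849 and 1926 CPM in shNC and 1459, 1717 and 1685 CPM in PLEK2 shRNA (log2 fold change -0.13 ± 0.107). RPL13 had 1399, 1700 and 1950 CPM against 1364, 1622 and 1619 CPM (log2 fold change -0.13 ± 0.126). In both genes every pair was lower and the groups overlapped, and pair 3 had the widest gap. RPL30 had the highest log2 fold change among the standard genes. It stood at 713, 642 and 741 CPM in shNC and 751, 737 and 762 CPM in PLEK2 shRNA. Every pair was higher in PLEK2 shRNA, although PLEK2 shRNA 2 lay below shNC 3 (log2 fold change 0.10 ± 0.077, edgeR, adjusted p = 0.968).

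RPL10, which joins the large subunit late in its assembly, had 1184, 1236 and 1203 CPM in shNC and 1159, 1180 and 1160 CPM in PLEK2 shRNA. RPL4, which lines the exit tunnel and was picked after its values were seen, had 2394, 2395 and 2452 CPM against 2361, 2358 and 2384 CPM. These were the 2 genes with no overlap between groups, and their changes were small, with log2 fold changes of -0.05 ± 0.066 and -0.03 ± 0.065. RPL3, which reaches into the peptidyl transferase centre, had 1881, 2051 and 2120 CPM against 1947, 2010 and 2019 CPM. Its groups overlapped and its pairs differed in sign (log2 fold change -0.02 ± 0.074). RPL41 had 783, 895 and 999 CPM against 771, 902 and 841 CPM, with shNC 3 again the highest (log2 fold change -0.09 ± 0.104).

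The stalk, made of RPLP0, RPLP1 and RPLP2, recruits the elongation factors to the ribosome. RPLP0 had 2583, 2687 and 2907 CPM in shNC and 2592, 2652 and 2646 CPM in PLEK2 shRNA. RPLP1 had 834, 888 and 1058 CPM against 815, 895 and 875 CPM. RPLP2 had 637, 798 and 960 CPM against 625, 831 and 765 CPM. In all 3 genes shNC 3 was the highest of the 6 libraries, and pair 3 was lower in PLEK2 shRNA. Their log2 fold changes were -0.05 ± 0.073, -0.11 ± 0.099 and -0.11 ± 0.155, none of which passed the test, and each turned above 0 in at least 1 alternative setting.

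The 7 genes with a known link to MDM2 and p53 (RPL5, RPL11, RPL23, RPL26, RPS7, RPS27A and RPS27L) showed a log2 fold change of 0.006 at the median, and 3 of the 7 were below 0. RPL5 had 741, 707 and 733 CPM in shNC and 789, 711 and 756 CPM in PLEK2 shRNA. RPL5 was higher in all 3 pairs with overlapping groups (log2 fold change 0.05 ± 0.072). RPL11, its partner in binding MDM2, had 793, 859 and 900 CPM against 830, 838 and 894 CPM. Its values mixed between the groups (log2 fold change 0.006 ± 0.077, 95% interval -0.17 to 0.18). RPL23, another MDM2 binder, had 602, 626 and 638 CPM against 625, 603 and 597 CPM (log2 fold change -0.03 ± 0.068). RPL26, which binds the mRNA of p53, had 840, 851 and 910 CPM against 816, 842 and 838 CPM (log2 fold change -0.06 ± 0.070).

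The 18 listed genes that are mutated in Diamond-Blackfan anemia showed a log2 fold change of -0.04 at the median, with 13 of 18 below 0 and 0 past an adjusted p of 0.05 in either fit. RPS19, the gene of this list most often mutated, had 649, 745 and 866 CPM in shNC and 684, 731 and 711 CPM in PLEK2 shRNA. The shNC libraries spread over a wider range than the knockdown libraries, which lay inside it (log2 fold change -0.09 ± 0.106).

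The X-linked genes were RPS4X, RPL10, RPL36A and RPL39, with a median log2 fold change of -0.02. RPS4X had 1059, 1028 and 1058 CPM in shNC and 1083, 1046 and 1031 CPM in PLEK2 shRNA with overlapping groups (log2 fold change 0.006 ± 0.067). RPL36A had 408, 424 and 474 CPM against 452, 438 and 446 CPM (log2 fold change 0.03 ± 0.079). RPL39, a protein of the exit tunnel, had 260, 305 and 392 CPM against 300, 305 and 313 CPM. Its PLEK2 shRNA libraries lay close together while its shNC libraries spanned the widest range of the 4 genes (log2 fold change -0.06 ± 0.135).

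The paralogs were expressed well below the standard genes. RPS27L, which is induced by p53, had 43.2, 34.9 and 42.0 FPKM in shNC and 55.7, 36.7 and 42.1 FPKM in PLEK2 shRNA, and its parent RPS27 had 2288 ± 194 and 2439 ± 67.8 FPKM (SD, n = 3). Replicate 1 was the highest RPS27L library in both groups. The log2 ratio of RPS27L to RPS27 was -5.84 ± 0.149 in shNC and -5.78 ± 0.268 in PLEK2 shRNA (SD, n = 3), a difference of 0.05 (exact permutation test, p = 0.8, and 0.8 after Benjamini-Hochberg adjustment over the 4 pairs tested).

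RPL22L1 came closest to its parent. It had 84.6, 80.4 and 95.8 FPKM in shNC and 99.2, 80.3 and 86.0 FPKM in PLEK2 shRNA, beside 202 ± 4.32 and 213 ± 19.4 FPKM (SD, n = 3) for RPL22. The log2 ratio was -1.22 ± 0.101 and -1.27 ± 0.0368 (exact permutation test, p = 0.7, adjusted 0.8). RPL7L1, an assembly factor of the large subunit, had 73.8 ± 3.51 and 77.8 ± 3.21 FPKM, and its log2 ratio to RPL7 was -4.40 ± 0.0937 and -4.33 ± 0.166 (exact permutation test, p = 0.7, adjusted 0.8). RPL26L1 had 57.5 ± 4.82 and 57.5 ± 3.80 FPKM, and its log2 ratio to RPL26 was -5.05 ± 0.0758 and -5.03 ± 0.0907 (exact permutation test, p = 0.6, adjusted 0.8). None of the 4 ratios differed between the groups by more than the larger of the SDs of the 2 groups. Their size depended on the length used to scale the counts, with 4189 nt implied for RPL7L1 and 723 nt for RPL7. Scaled to coding length, RPL7L1 had 415 CPM per kb beside 1521 for RPL7, and RPS27L had 158 beside 2069 for RPS27. On that scale RPL22L1 had 436 beside 1051 for RPL22, and RPL26L1 had 78.0 beside 1953 for RPL26. RPL3L, the paralog of striated muscle, had 0, 0 and 0 counts in shNC and 2, 0 and 1 counts in PLEK2 shRNA, at or under the limit of 3 counts that a count of 0 allows, and no fold was computed.

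Within shNC, most of the genes moved together from library to library, and in PLEK2 shRNA they did so less. Relative to its own group mean, the median ribosomal protein gene stood at -0.10 in shNC 1, -0.02 in shNC 2 and 0.11 in shNC 3 on the log2 scale, and 7, 32 and 77 of the 81 genes were above the mean. In PLEK2 shRNA the medians were -0.04, 0.02 and 0.02, with 28, 51 and 62 genes above the mean. In 60 of the 81 genes shNC 1 was the lowest and shNC 3 the highest shNC library. This order held in 24.6% of all genes tested and in 19.1% of 581 other genes. Those 581 genes were all others with a mean level no lower than that of the lowest standard gene, and they were not matched in level. The median SD of log2 CPM was 0.118 in shNC and 0.0693 in PLEK2 shRNA, against 0.145 and 0.142 over all genes and 0.103 and 0.105 over the 581 other genes. The SD was larger in shNC for 67 of the 81 genes, against 50.95% of all genes. The same-numbered pairs differed accordingly: the median log2 ratio was 0.04 in pair 1, -0.01 in pair 2 and -0.14 in pair 3, and 28, 50 and 76 of 81 genes were lower in PLEK2 shRNA.

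The widest spreads in shNC were those of genes for very small proteins, picked here after their values were seen. RPS29, a zinc-binding protein with a coding sequence of 168 nt, had 292, 352 and 509 CPM in shNC and 325, 359 and 373 CPM in PLEK2 shRNA. Its shNC 3 value was above all the others, and its deviations in shNC were -0.36, -0.09 and 0.44. RPL38 (210 nt) had 214, 251 and 335 CPM against 221, 255 and 252 CPM, and RPS21 (249 nt) had 224, 264 and 343 CPM against 238, 263 and 269 CPM. Both had the same order, with shNC 3 highest and shNC 1 lowest. RPS28 (207 nt) went another way, at 361, 417 and 349 CPM against 315, 392 and 372 CPM, with replicate 2 highest in both groups.

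Coding length went with the ratios of pairs 1 and 3 in opposite directions, in other genes as well as in ribosomal protein genes. In pair 2 it went with the ratios of ribosomal protein genes, in the direction of pair 1. The median log2 ratio of pair 3 was -0.19 in the 27 genes with a coding sequence of up to 400 nt, -0.12 in the 31 genes of up to 600 nt and -0.11 in the 21 genes of up to 1000 nt. In other genes (200 or more counts per library) it was -0.06, -0.02 and -0.0009 in the same classes and 0.02 in both classes above 1000 nt. In pair 1 the ribosomal protein genes stood at 0.09, 0.03 and 0.01 and the other genes at 0.03, 0.02 and 0.005. In pair 2 the ribosomal protein genes stood at 0.01, -0.02 and -0.03, and the other genes at 0.01, -0.002 and 0.008, with no steady order over their classes. Ribosomal protein genes have a median coding length of 454.5 nt, against 1419 nt over 12361 of the genes tested. Across the 81 genes Spearman's rho with coding length was -0.246, -0.339 and 0.424 for the ratios of pairs 1, 2 and 3, and 0.343 and -0.513 for the deviations of shNC 1 and shNC 3; these genes share their libraries and their depth. The part of length or of library preparation in the results above was not tested.

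Genes with and without a TOP-like start had close values. The median log2 fold change was -0.05 in the 59 ribosomal protein genes with such a start and -0.03 in the 22 tested ones without it, and 0.007 in 617 other tested genes with it. In shNC 3 those 617 genes had a median deviation of 0.01, against 0.11 in the ribosomal protein genes. Of the other TOP mRNAs, which encode elongation factors and related proteins, 14 were tested, with a median of -0.005 and 0 past an adjusted p of 0.05 in either fit. EEF1D, a subunit of elongation factor 1, had 462, 530 and 485 CPM in shNC and 375, 444 and 454 CPM in PLEK2 shRNA. The groups did not overlap, and its log2 fold change was -0.21 ± 0.096 without and -0.22 ± 0.056 with the block (edgeR, adjusted p = 0.968 and 0.0834). EEF2, which moves the ribosome along the mRNA, had a log2 fold change of -0.13 ± 0.092. EEF1D and EEF2 were the 2 of this list with the smallest unadjusted p without the block. Of the 14 genes, 8 were below 0, against 50.6% of all genes, and NPM1 was the highest at 0.15 ± 0.152.

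Ribosomal proteins whose names fall outside the rule had values in the same range. FAU, RPL36AL and RACK1 all had log2 fold changes below 0, and none was called in either fit. RPL36AL, a near copy of RPL36A, had -0.02 ± 0.074. FAU, whose product is cut to release a small-subunit protein, had -0.08 ± 0.077, and RACK1, a scaffold on the small subunit, had -0.08 ± 0.083. The 6 chaperones of ribosomal proteins had a median of 0.01 and 0 called. BCCIP had 0.18 ± 0.119 and HEATR3, a carrier of RPL5, had -0.13 ± 0.115.

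The 50 ribosome assembly factors had a median log2 fold change of -0.008, and 0 were called in either fit. At an unadjusted p under 0.05, 1 of 50 was lower without the block, against 2.22% of all genes, and with the block 8 were lower and 1 higher, against 10.4% and 7.89% of all genes. DDX21, a nucleolar RNA helicase, was that 1 gene. It had 659, 592 and 507 CPM in shNC and 437, 501 and 476 CPM in PLEK2 shRNA. Its groups did not overlap, and its log2 fold change was -0.31 ± 0.106 without and -0.31 ± 0.077 with the block (edgeR, adjusted p = 0.968 and 0.0779). RRP12 had -0.20 ± 0.121, with overlapping groups. The 13 genes of RNA polymerase I transcription, which makes the ribosomal RNA precursor, had a median of -0.03 and 0 called. In this list 11 of 13 genes were below 0, against 50.6% of all genes. Among them were TWISTNB (-0.18) and TAF1C (-0.18), the 2 with the smallest unadjusted p. TAF1B (0.16) and RRN3 (0.04) were above 0, and with library totals the median of the list was -0.002.

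The 13 genes that control the translation of TOP mRNAs had a median log2 fold change of -0.04 and 0 called in either fit. EIF4EBP2, a repressor of cap-dependent translation that mTOR switches off, had 138, 119 and 116 CPM in shNC and 165, 130 and 142 CPM in PLEK2 shRNA. It was higher in every pair, although PLEK2 shRNA 2 lay below shNC 1 (log2 fold change 0.23 ± 0.110, and 0.23 ± 0.055 with the block; edgeR, adjusted p = 0.968 and 0.0745). EIF4EBP1, its close relative, had 105, 106 and 116 CPM against 92.7, 102 and 89.6 CPM. Its groups did not overlap, with PLEK2 shRNA below (log2 fold change -0.20 ± 0.088, adjusted p in edgeR 0.968). MYC, a driver of ribosome production, had 506, 457 and 410 CPM against 460, 455 and 424 CPM (log2 fold change -0.04 ± 0.091).

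Reads from ribosomal protein genes can also match pseudogenes and readthrough transcripts, and the counts show where they were divided. Counts with decimals, as left when a read is shared out, occurred in 16 of the 82 genes (19.5%, against 21.6% of all genes). In RPL10, RPL12, RPL17, RPL23A, RPL24, RPL41, RPS10, RPS26 and RPSA they occurred in all 6 libraries, and levels of these 9 genes are the less certain. The readthrough gene of RPL36A took between 0% and 10.8% of their joint counts, with 760, 242 and 0 counts in shNC and 615, 304 and 208 in PLEK2 shRNA. Those of RPL17 and RPS10 took at most 0.623% and 0.555%. The RPSA pseudogene RPSAP58 was listed at 16.2, 23.7 and 39.7 FPKM in shNC and 21.6, 25.2 and 25.3 FPKM in PLEK2 shRNA, in the same order over the shNC libraries as RPSA itself.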

How the data were processed

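RNA sequencing of 6 HCT116 libraries was examined, 3 with shNC and 3 with PLEK2 shRNA, grouped by the submitters' labels. The labels number the libraries of each group, taken here as replicate numbers. For each gene and library the authors deposited an estimated count, not always whole, and an FPKM value, a unit read from the values since the header names none. The submitters' processing notes name HISAT2 2.0.4, Bowtie2 2.2.5, RSEM 1.2.12 and DESeq2 1.4.5 and, although the genes are human, the mouse build GRCm38.p6, so the build behind the counts is uncertain. Group means deposited beside the libraries were not used, and 0 columns of values were left without a sample or group.

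Counts were rounded to whole numbers, genes were filtered with filterByExpr defaults (12959 of 17047 kept), and all of them were fitted with the quasi-likelihood test of edgeR 4.0.16 (R 4.3.3) with TMM factors of 0.984 to 1.02 and Benjamini-Hochberg adjustment over all genes tested. The standard error was the log2 fold change over the square root of F. CPM were scaled by TMM, with 0.5 added for pair ratios and deviations, and 0.1 was added to FPKM for ratios of paralogs. Shares and ratios per library were compared by exact two-sided permutation over 20 labelings. Intervals are at 95%, and limits from counts cover counting error only.

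Same-numbered libraries were treated as pairs, because their deviations from the mean of their group correlated at 0.729, 0.557 and 0.561 over 10184 genes. This rests on the data and the shared numbers in the labels, and no source states a shared day or batch. Counting error alone did not account for the spread of replicates (chi-square per gene 3.05 to 20.2).

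Alternatives were the replicate block, DESeq2 1.42.0 and its size factors, library totals, other filters, limma-trend (limma 3.58.1) on log2(FPKM + pseudocount), and leaving out libraries. The test was tried on simulated data. The ribosomal protein genes and the other lists were chosen with earlier results of these data known, and lists were written from general knowledge. Genes named were those called in either fit, the 5 lowest p, the 5 highest and 5 lowest fold changes and levels, the paralogs with their parents, and listed genes of known function. Coordinates, coding lengths without the stop codon and first bases come from GENCODE 44 on GRCh38 and were matched by symbol for all 82 genes. Figures used Python 3.11.15 and matplotlib 3.10.9. Some genes are not reported here or drawn in the figures of single genes.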

Additional observations from a re-analysis of the deposited data

How the results depend on the processing

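The count of 0 ribosomal protein genes past an adjusted p of 0.05 held in 18 of 19 alternative settings, namely DESeq2 and its size factors, library totals, 2 other filters, limma-trend on FPKM, the block, the block with library totals or DESeq2, and each library left out. With the replicate block and without replicate 1 of both groups it was 2, with RPS16 among them, in a fit that called 4.06% of all genes. The cause was not tested. The replicate block itself left the count at 0 and the median log2 fold change at -0.04, and it changed no call of these genes. For the ratios and shares the block was an exact sign-flip test over the same-numbered pairs. With 3 pairs it cannot give a p below 0.25, so it could not have called any of them. Leaving out 1 library moved the median between -0.08 and 0.03, the share difference between -0.377 and 0.214 percentage points, and the log2 ratio of RPS27L to RPS27 between -0.09 and 0.17. The block without replicate 3 of both groups gave a median of 0.02, against 0.01 over all genes. With limma-trend on FPKM the median was -0.002, against 0.03 over all genes. Of 33 genes taken by the rule for named genes and tested, 12 kept their sign in all 19 settings and 21 did not. Calls over all genes differed more, with 0 in edgeR, 110 with the block, 12 in DESeq2 and 74 in DESeq2 with the block. In the other lists, EIF4EBP2 passed the threshold with the block and library totals and with the block without replicate 1. DDX21 and EEF1D passed it with the block without replicate 3. These fits called 1.48%, 4.06% and 2.28% of all genes, in that order. With 3 libraries a group, the median standard error of 0.085 without and 0.056 with the block limited which changes could be called.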
